A study of Mus musculus with 9 samples.

Results

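Patrolling non-classical monocytes were 149 of the 8527 mouse liver cells with at least 200 detected genes, out of 8562 cells in all. They were selected on their own transcripts. A cell was taken when it held a count of at least 2 of the 4 genes Ace, Treml4, Cd300e and Eno3, at least 1 count of the myeloid gene Lyz2, fewer than 3 of the 5 classical monocyte genes Chil3, F13a1, Fn1, Ly6c2 and Ccr2, fewer than 5 counts of C1qa, C1qb and C1qc together, and none of Cd3e or Cd79a. These 15 genes were therefore described and never tested. The cells came from 9 single-cell RNA sequencing libraries of collagenase-treated whole liver from C57BL/6 animals, all carrying ROSA26-rtTA-IRES-EGFP, the doxycycline-dependent activator, and all fed doxycycline. The wild-type group (WT, 2 libraries) lacked the YAP transgene and was fed doxycycline for 7 days. The other 2 groups carried tetYAP and were fed doxycycline for 3 days (YAP3d, 4 libraries) or for 7 days (YAP7d, 3 libraries). As the methods of the study describe the model, an active YAP mutant was switched on in hepatocytes through an albumin-driven Cre, so monocytes were not meant to carry it. Yap1 had 0 counts in the members of every library. With 2 to 64 members per library this does not show its absence, and whether transgene reads are counted as Yap1 was not tested. The labels number the libraries as replicates without naming the animals, so p-values measure the spread between libraries.

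Non-classical monocytes arise from classical Ly6C-high monocytes in blood and bone marrow and depend on the nuclear receptor Nr4a1 and on Cebpb. They crawl along the inner wall of vessels, held by the integrin LFA-1 (whose alpha chain is Itgal) and attracted by fractalkine through Cx3cr1, and clear damaged material. In the liver they occupy the sinusoids beside Kupffer cells, the resident macrophages. Ace, angiotensin-converting enzyme, and Treml4, a receptor that binds dying cells, mark them in the mouse.

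The libraries held between 293 and 2554 cells and between 1314878 and 25056881 counts of unique molecular identifiers (UMIs, 1 per captured transcript molecule). The 2 to 64 members of a library together held between 12049 and 430864 UMIs, and a member had a median of 5800, below the 9554 of classical monocytes and the 9667 of C1q macrophages. YAP7d held 0 cells with under 2000 UMIs, against 282 in WT and 358 in YAP3d. Doublet scoring marked 60 cells (0.704%) and 0 members. Of the 93 cells whose barcode also occurred in another library, 3 were members, and 0 members shared a barcode with another member. A pseudogene transcript, Gm10709, divided the libraries in a way that partly followed the groups: it was at 340 to 611 CPM (counts of a gene scaled to a common total) in YAP3d replicates 1 and 2 and all 3 YAP7d libraries, and at 3.62 to 11.2 CPM in both WT libraries and YAP3d replicates 3 and 4. WT and YAP7d thus lie wholly on opposite sides, and this division cannot be told apart from the group when they are compared.

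The members held the genes of the non-classical programme that the selection had not used. Ear2, an eosinophil-associated ribonuclease, had a count in 126 of the 149 members (84.6%), against 1.09% of T cells, and stood at 820 CPM over all members, 73.8 in classical monocytes and 2.30 in T cells. T cells had a median of 4529 UMIs and here stand for the free RNA of the droplets. They were chosen to hold no count of Lyz2, so droplets rich in free myeloid RNA may be missing. Their values may therefore understate the free RNA. Gngt2, a G-protein gamma subunit, was counted in 98.0% of members and 23.7% of T cells. Fcgr4 was counted in 77.2% of members and 1.40% of T cells, Adgre4, an adhesion receptor, in 77.2% and 1.09%, and the fractalkine receptor Cx3cr1 in 51.0% and 1.24%. Nr4a1 was counted in 96.0% of members but also in 29.5% of T cells, where it reached 243 CPM. Pglyrp1, a peptidoglycan-binding protein, was counted in 71.8% of members but also in 30.1% of T cells, at 70.4 to 107 CPM in the T cells of every library.

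The 4 selecting genes were found in several combinations. All 4 were counted in 43 members, 3 in 62 and exactly 2 in 44, and the commonest pair was Ace with Eno3 in 14 cells. At the edge of the rule, the 44 cells with exactly 2 of them had 299 CPM of Ear2 and 1108 of Gngt2, and the 147 cells left out for holding only 1 had 48.6 and 227. The latter also held 144 CPM of Stab2, a gene of sinusoidal endothelium, against 17.3 in the former. The other edges were less steep. The 56 members with exactly 2 classical genes had 644 CPM of Ear2 and the 48 cells with 3, left out, had 541, and the 31 members with 3 or 4 C1q counts had 861 where the 52 cells with 5 to 9 had 639. Cells that carried Cd3e or Cd79a were left out in 38 cases, with 273 CPM of Ear2, and cells without Lyz2 in 2.

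A minority of the members went against the label. In 22 of the 149, Cd74, the invariant chain of MHC class II, took between 1.03% and 5.06% of all UMIs, whereas the other 127 did not pass 0.787%. The cut at 1% was chosen after these values were seen. The 22 held a median of 11 of the 24 programme genes against 16 in the others, and 4669 against 16917 CPM of the programme. Their Ear2 was 109 against 1065 CPM, Fcgr4 64.4 against 621 and Pglyrp1 36.2 against 1365. They had a median of 10716.5 UMIs against 5365, 17 had only 2 of the selecting genes and 0 had all 4. Genes of conventional dendritic cells, the professional antigen-presenting cells, were at 636 CPM in the 22 and at 23.5 in the 127. Xcr1 was at 165 against 0 CPM, Cd209a at 125 against 1.38 and Flt3 at 88.6 against 4.15, and 13 of the 22 held at least 1 count of the list, as did 13 of the 127. The counts lay in few cells, with Xcr1, Cd209a and Flt3 found in 4, 5 and 6 of the 22. These cells are called Cd74-high members here and are given no other name. They made up 2 of the 3 members of WT replicate 1 and both members of YAP3d replicate 1, and 2 of 17 in WT replicate 2. YAP3d replicates 2, 3 and 4 had 2 of 8, 2 of 4 and 3 of 14, and YAP7d replicates 1, 2 and 3 had 6 of 32, 0 of 5 and 3 of 64. Results were recomputed without them, and the main changes are given beside each group of genes.

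**Figure D1:**
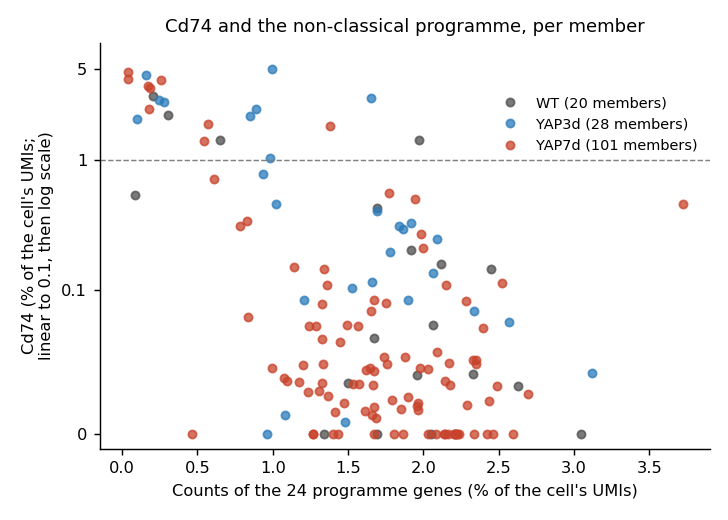
Each point is 1 of the 149 members, with the percentage of its UMIs from the 24 programme genes on the x axis and the percentage from Cd74 on the y axis (linear to 0.1%, logarithmic above), coloured by group. Of the 22 cells above the dashed line at 1%, 19 hold under 1% of their UMIs in programme genes and the other 3 hold 1.38%, 1.65% and 1.97%, whereas the other 127 have a median of 1.78%.

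The share of these monocytes among all liver cells was highest in YAP7d on average, but the libraries overlapped. It was 0.576% in WT replicate 1 and 1.20% in WT replicate 2. In YAP3d it was 0.712%, 1.81%, 0.948% and 0.549% in replicates 1 to 4. In YAP7d replicates 1 and 3 stood at 5.34% and 3.49%, above every other library, while replicate 2 stood at 1.08%, inside the range of the other groups. Counting alone gave wide exact 95% binomial intervals, from 0.119 to 1.67% for WT replicate 1 and from 3.68 to 7.46% for YAP7d replicate 1. Group means were 0.888% ± 0.442 (SD, n = 2) in WT, 1.0% ± 0.561 (n = 4) in YAP3d and 3.31% ± 2.13 (n = 3) in YAP7d. YAP7d exceeded WT by 2.42 percentage points (two-sided exact permutation test over libraries, p = 0.3, smallest possible 0.1) and YAP3d by 2.30 (exact p = 0.0571, smallest possible 0.0286). YAP3d and WT differed by 0.116 (exact p = 0.933, smallest possible 0.0667). No share reached 0.05, and only the comparison of YAP7d with YAP3d could have. YAP7d replicate 1 carried much of the difference: without it YAP7d exceeded WT by 1.40 points and YAP3d by 1.28. With cells randomly thinned to 2000 UMIs and shallower cells left out, YAP7d exceeded WT by 3.18 points (exact permutation p = 0.3). It then exceeded YAP3d by 2.74 (exact p = 0.143). In cells of at least 4000 UMIs, YAP7d minus YAP3d was 1.81 (exact p = 0.229). Without the 109 members that held counts of other cell types the group means were 0.177% in WT, 0.592% in YAP3d and 1.35% in YAP7d, with differences of 1.17 (exact p = 0.6) and 0.758 points (exact p = 0.657). Among the 5 libraries high in Gm10709, YAP7d exceeded YAP3d by 2.04 points (exact permutation p = 0.3, smallest possible 0.1), and among the 4 low in it YAP3d minus WT was -0.140 (exact p = 0.667, smallest possible 0.333).

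Without the Cd74-high members the shares were 0.192% and 1.06% in WT, 0%, 1.36%, 0.474% and 0.431% in YAP3d, and 4.34%, 1.08% and 3.33% in YAP7d. All 3 YAP7d libraries then lay above both WT libraries, the nearest pair being 1.08% and 1.06%, and YAP7d exceeded WT by 2.29 points (exact permutation p = 0.2). The 0 cells left in YAP3d replicate 1 came from a library of 293 cells.

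A share of all cells also moves when any other cell type is recovered more or less well, so the same cells were counted against monocytes only, that is against members plus the 321 classical monocytes of the same libraries. Classical monocytes, their circulating precursors, were selected by at least 3 of the 5 classical genes, fewer than 2 of the selecting genes and the same limits on the rest. The percentages were 37.5 and 39.5 in WT, 40, 16, 50 and 29.8 in YAP3d, and 47.1, 25 and 29.0 in YAP7d. On this scale the groups lay together, at 38.5% ± 1.44 (SD, n = 2), 33.9% ± 14.5 (n = 4) and 33.7% ± 11.8 (n = 3). YAP7d minus WT was -4.84 points (exact permutation p = 0.6), YAP3d minus WT -4.57 (exact p = 0.733) and YAP7d minus YAP3d -0.274 (exact p = 0.971). Both WT values rest on few cells, 3 of 8 and 17 of 43. Without the Cd74-high members the differences were 5.01, -8.92 and 13.9 points, so the direction of the first and the last depended on those cells. Among the libraries high in Gm10709 YAP7d minus YAP3d was 5.67 points (exact permutation p = 0.7), and among those low in it YAP3d minus WT was 1.38 (exact p = 1, smallest possible 0.333).

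**Figure D2:**
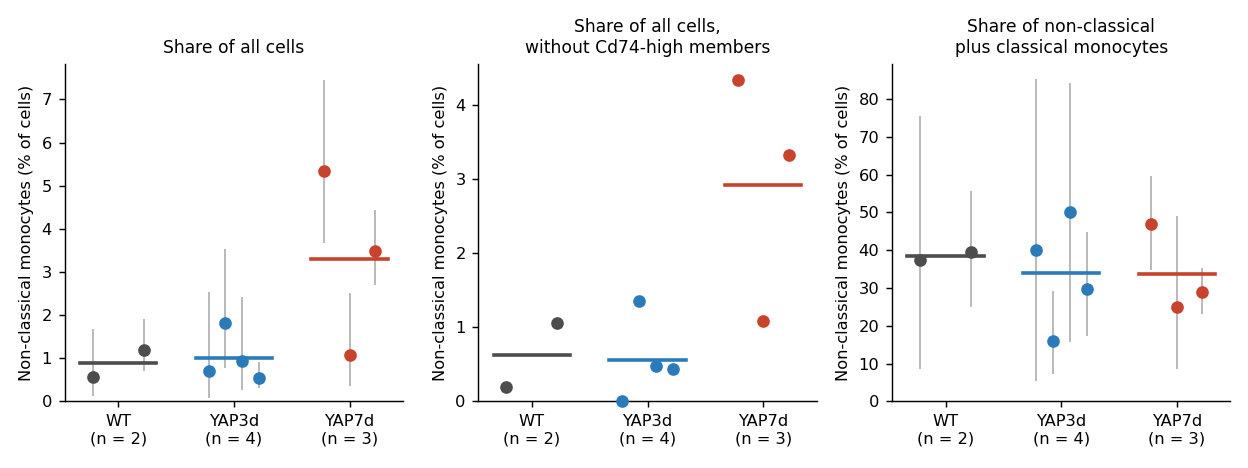
The 3 panels give, for each library (points, with exact 95% binomial intervals where drawn) and each group mean (bars), the percentage of all cells, the same without the 22 Cd74-high members, and the percentage of non-classical plus classical monocytes. YAP7d replicates 1 and 3 stand above the rest in the first panel at 5.34% and 3.49%, and the groups overlap in the last.

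To describe the cells apart from the groups, their summed counts were set against those of classical monocytes in the 4 libraries with at least 10 cells of both (WT replicate 2, YAP3d replicate 4, YAP7d replicates 1 and 3), with the library as a block. Of 3072 genes tested, 182 were higher (5.92%) and 132 lower (4.3%) in non-classical monocytes at an adjusted p below 0.05 in edgeR's quasi-likelihood test, and the median difference over all genes was -0.02 on the log2 scale. Ear2 led. In non-classical monocytes it was 755, 659, 793 and 975 CPM in the 4 libraries in the order just given, and in classical monocytes 0, 37.6, 86.5 and 58.7 CPM. The ranges were far apart, with a log2 difference of 4.09 ± 0.33 (SE; adjusted p = 7.26e-06). Reads of Ear2 may be shared with the near-identical genes of its family. Pglyrp1 was 1452, 604, 995 and 1290 CPM against 118, 109, 104 and 274, again without overlap (log2 difference 2.86 ± 0.22, adjusted p = 7.14e-06).

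Of the 24 programme genes 22 were tested, 19 were higher and 0 lower, with a median log2 difference of 1.89. Beside Ear2 and Pglyrp1 the largest differences in log2 were those of Dusp16, a phosphatase of MAP kinases, at 3.29, Cd36, a scavenger receptor for lipids, at 3.01, Fcgr4, the activating receptor for IgG2, at 2.71, and Adgre4 at 2.54. Cyth3, an exchange factor for ARF proteins, at 3.00, Cd300ld at 2.75, the tetraspanin Cd9 at 2.63 and Smpdl3b, a sphingomyelinase-like protein, at 2.54, belonged to no list and completed the 10 largest. Gngt2 was 2077, 1385, 1966 and 1966 CPM against 364, 267, 626 and 469 in classical monocytes. Spn, the sialoglycoprotein CD43 that is used to sort these cells, was 236, 165, 275 and 167 CPM against 48.2, 44.5, 57.7 and 55.6. The genes that did not pass were Cx3cr1 (log2 difference 0.36), Csf1r, the receptor for the survival factor M-CSF (0.50), and Smpdl3a (0.01). Cx3cr1 was 189, 87.9, 179 and 128 CPM in the members and 187, 157, 110 and 77.2 in classical monocytes, ranges that overlap almost wholly. Without the Cd74-high members calls rose over all genes, to 9.54% higher and 7.3% lower of 2987 tested. Of the programme 20 of 21 tested were then higher, with a median of 2.06, and Cx3cr1 (0.77, adjusted p = 0.0249) and Csf1r (0.84, adjusted p = 0.0119) passed the edgeR test.

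**Figure D3:**
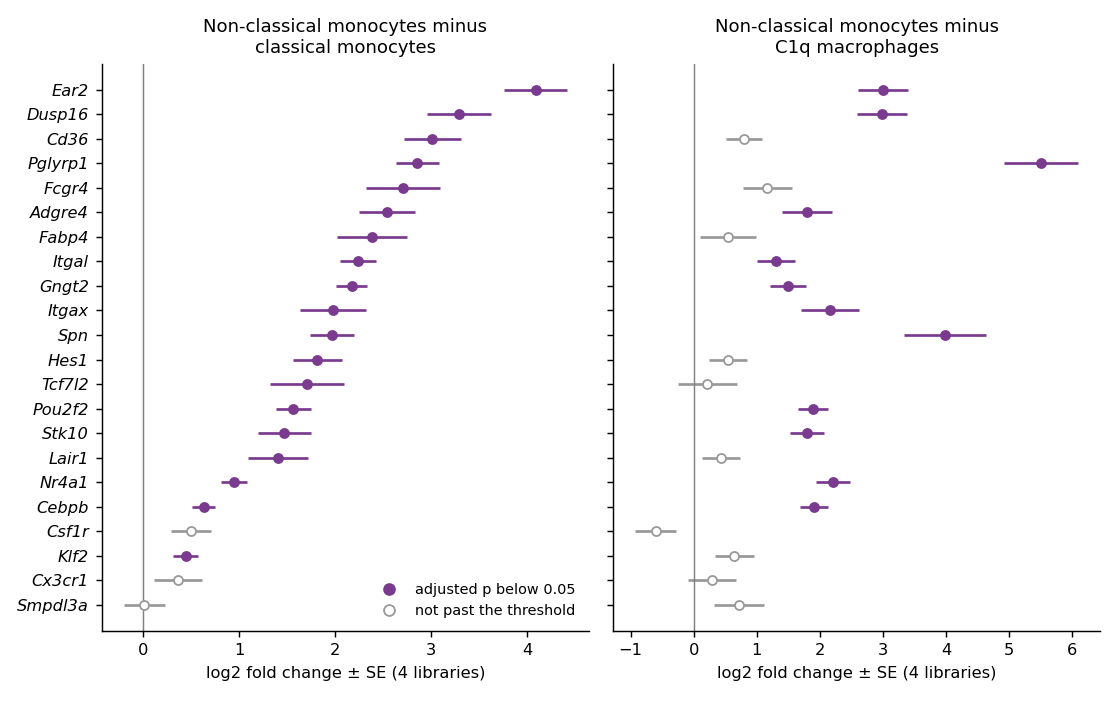
Log2 difference ± SE of the 22 tested programme genes in non-classical monocytes against classical monocytes and against C1q macrophages, from 4 libraries, with filled points where the adjusted p was below 0.05. Against classical monocytes 19 points are filled and all of these lie above 0, from Klf2 at 0.44 to Ear2 at 4.09.

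The upstream sequences of programme genes were read for elements of the factors named above, since 19 genes differed together and Nr4a1, Cebpb and Spi1 were among the factors that were higher. RefSeq start sites on GRCm38.p6 gave 32851 windows of 250 bases before a start for 27025 genes, and 18 of the 24 programme genes had one. The NR4A element AAAGGTCA, on either strand, was in the windows of 1.55% of all genes with one and of 0 of the 18. The C/EBP element TTGCNNAA was found for 10.8% of all genes and for 3 of the 18 (Ear2, Adgre4 and Lair1). The PU.1 element GAGGAAGT was found for 2.79% of all genes and for 1 of the 18 (Fcgr4), and among the 10 largest rises also in Cd300ld. The 4 windows with a match among those 10 genes are printed 5' to 3' on the gene's strand, with the matching letters in capitals, and no match overlapped another. Ear2 has its match 90 bases before the start (chr14:44102404-44102653, plus strand), Adgre4 46 bases before (chr17:55749734-55749983, plus strand), Fcgr4 24 bases before (chr1:171018676-171018925, plus strand) and Cd300ld 143 bases before (chr11:114989887-114990136, minus strand). A match describes the letters and is not evidence of binding.
Ear2: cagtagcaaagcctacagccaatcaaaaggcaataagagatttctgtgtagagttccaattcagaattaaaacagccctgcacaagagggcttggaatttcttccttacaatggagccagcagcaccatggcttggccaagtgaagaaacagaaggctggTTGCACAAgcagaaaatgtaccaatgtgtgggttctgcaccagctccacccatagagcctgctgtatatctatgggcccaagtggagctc
Adgre4: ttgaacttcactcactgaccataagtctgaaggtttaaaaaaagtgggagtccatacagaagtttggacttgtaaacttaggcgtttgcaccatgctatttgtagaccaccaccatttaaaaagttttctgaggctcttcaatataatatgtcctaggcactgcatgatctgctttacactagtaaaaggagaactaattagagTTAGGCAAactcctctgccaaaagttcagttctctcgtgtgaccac
Fcgr4: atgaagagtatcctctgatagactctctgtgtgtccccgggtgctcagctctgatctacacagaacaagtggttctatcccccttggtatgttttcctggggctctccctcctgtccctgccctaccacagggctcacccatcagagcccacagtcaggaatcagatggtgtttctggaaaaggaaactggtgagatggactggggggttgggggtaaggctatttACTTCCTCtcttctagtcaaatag
Cd300ld: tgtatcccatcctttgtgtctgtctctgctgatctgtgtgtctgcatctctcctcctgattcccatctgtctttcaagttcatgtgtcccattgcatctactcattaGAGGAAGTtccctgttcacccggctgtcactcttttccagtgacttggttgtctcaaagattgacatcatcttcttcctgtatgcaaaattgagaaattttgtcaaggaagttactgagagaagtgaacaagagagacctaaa

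Among 18 transcription factors tested, 7 were higher and 0 lower. Nr4a1 was 1157, 1209, 866 and 829 CPM against 632, 626, 525 and 408 in classical monocytes, higher in each library (log2 difference 0.95 ± 0.14, adjusted p = 0.000569 in edgeR). Cebpb, on which survival of these cells depends, was 3824, 2802, 3681 and 3593 CPM against 2607, 2469, 2379 and 1920. The log2 differences of the other 5 were 1.81 for the Notch target Hes1, 1.70 for Tcf7l2, 1.56 for Pou2f2, 0.51 for Spi1, which encodes PU.1, and 0.44 for Klf2. In the survival list 4 of 10 were higher and 0 lower: Bcl2 by 1.32 on the log2 scale and its relatives Bcl2a1a, Bcl2a1b and Bcl2a1d by 2.18, 2.39 and 2.52. The last 3 are near-identical copies and their counts may have been divided between them. Without the Cd74-high members 8 of 17 factors were higher, Klf4 (0.64) being added, and 3 were lower, namely Irf8 (-1.17), Cebpa (-1.05) and Id3 (-0.74). Irf8, a factor of monocyte and dendritic cell development, had a log2 difference of -0.20 with all members. Csf1r (0.84) then joined the survival genes, 5 of 10.

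Of 14 genes of adhesion and crawling 4 were higher and 1 was lower, the latter a share near the 4.3% of all genes. Itgal was 448, 429, 358 and 390 CPM against 91.0, 95.8, 98.0 and 74.1 in classical monocytes (log2 difference 2.24 ± 0.19, adjusted p = 7.65e-06 in edgeR). Itgax, Spn and Itga4 were higher by 1.97, 1.96 and 1.07 on the log2 scale. Itgb7, an integrin chain of gut homing, was lower (-1.20). Of 5 chemotactic receptors tested, Cxcr4, which retains cells in marrow and marginated pools, was higher by 1.57, and Ccr1 was lower (-2.74). Of 10 genes of Fc receptors and uptake, Fcgr4, Cd36 and Fcer1g, the signalling chain of Fcgr4, were higher (Fcer1g by 0.40), and Fcgr1, Fcgr3 and Msr1 were lower (-1.53, -0.89 and -1.47). Apoe at 0.59, Fabp4 at 2.38 and Cd36 were the 3 of 9 lipid genes that were higher, with 0 lower. Without the Cd74-high members the chemotactic receptors Cx3cr1, Ccrl2 and C5ar1 (0.77, 0.63 and 0.88) were higher beside Cxcr4, 4 of 6, and Ccr1 was still lower (-3.32). The integrins Itgb2 and Itgb1 (0.76 and 0.78), the endocytic receptor Lrp1 (1.05) and Plin2, a lipid droplet protein (0.76), were higher as well. Fcgr3 no longer passed (-0.67) and Itgax had too few counts to be tested.

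The genes that were lower included 7 of 12 tested from the classical programme, with 0 higher and a median log2 difference of -1.11. They were Thbs1 (-2.58), Emb (-1.62), Cd14, the co-receptor for lipopolysaccharide (-1.54), Ms4a4c (-1.42), Mgst1 (-1.41), Tgfbi (-1.18) and Hp (-1.04). Cd14 was 177, 198, 293 and 299 CPM against 717, 1118, 675 and 669 in classical monocytes, without overlap. Genes outside the lists among the largest falls were Gas7 (-3.87), Cd177 (-3.06), Ms4a4b (-2.48), Capg, an actin-capping protein (-2.38), and Ifi47 (-2.27), and C3, the central complement component, was the 1 of 4 complement genes that was lower (-2.26). Interferon-stimulated genes stood lower in 6 of 13 cases and higher in 0, with a median of -1.08: Isg15, Oasl2, Ifi203, Oas1a, Ifi204 and Bst2. Isg15 was 11.8, 22, 151 and 34.8 CPM against 348, 150, 482 and 80.3, lower within each library although the ranges of the 2 classes overlap. Of 13 cytokines and chemokines Cxcl10 (-2.30) and Ccl9 (-1.56) were lower and 0 higher. The counts of 0 did not all hold without the Cd74-high members, when 9.54% of all genes were higher and 7.3% lower. Clec4e of the classical programme was then higher (1.15), 1 of 12 and near that share, as were Il1b and Cxcl2 (0.79 and 1.29), 2 of 12 cytokines and chemokines, and Ccl4 (-0.92) was the third that was lower. Of 4 complement genes Cfp (-0.92) was then lower beside C3 (-1.94) and C5ar1 was higher. Genes of the respiratory chain (25 tested) and of proliferation (7 tested) held 0 calls with all members, and Atp5b (-0.55) and Hmgb2 (-0.73) were lower without the Cd74-high members, 1 of 25 and 1 of 5. Among 12 glycolytic genes the lactate exporter Slc16a3 was higher (0.94) and Pkm lower (-0.72) with all members. These shares are near the 5.92% and 4.3% of all genes. Neutrophil genes S100a8 (-1.98) and Mmp8 (-3.72), the cytotoxic granule gene Nkg7 (-2.92) and Tcf4 (-1.47) from lists of other cell types were also lower. Not all genes of these lists went this way: without the Cd74-high members 3 of 4 tested neutrophil genes were lower and 1 was higher. The NK cell and plasmacytoid dendritic lists then had 1 tested gene each, which was lower.

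**Figure D4:**
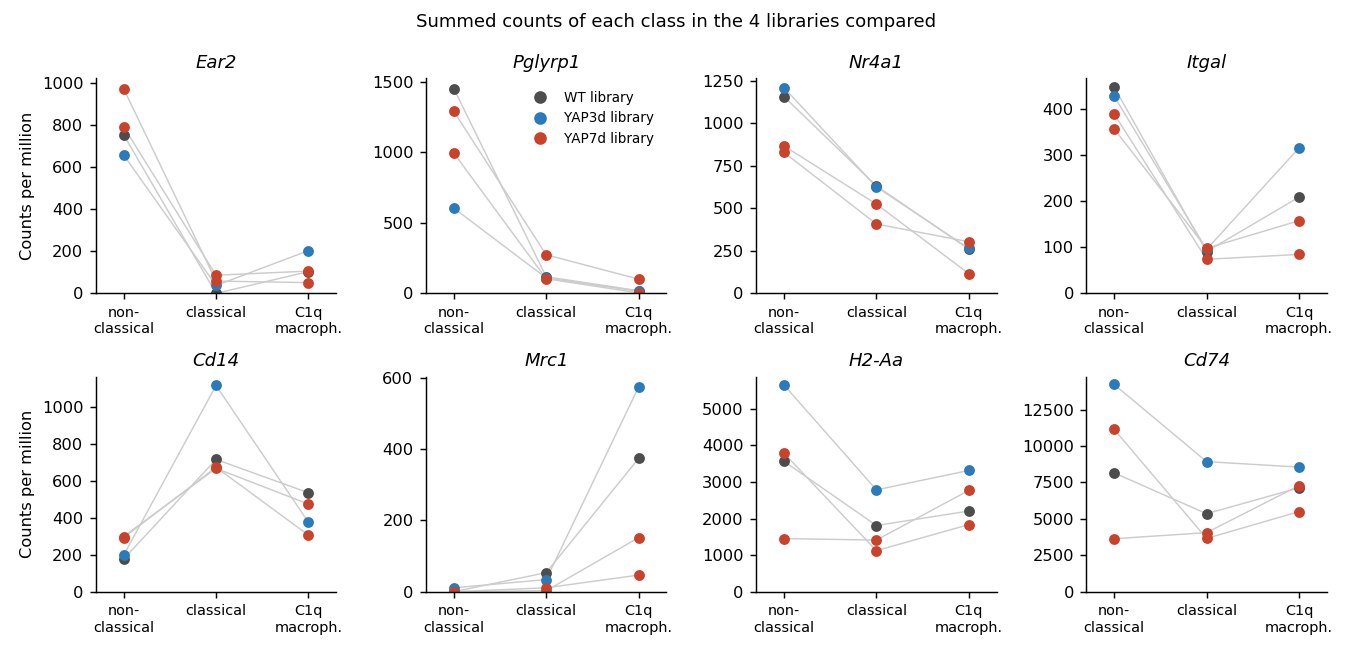
Levels in CPM of Ear2, Pglyrp1, Nr4a1, Itgal, Cd14, Mrc1, H2-Aa and Cd74 in non-classical monocytes, classical monocytes and C1q macrophages, each point being 1 of the 4 libraries with at least 10 cells of each class. Ear2 in non-classical monocytes lies between 659 and 975 CPM, above every value of the other classes, whereas Cd74 overlaps in all 3.

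MHC class II, the molecules that present antigen to CD4 T cells, gave opposite directions with and without the Cd74-high members. With all members, H2-Aa was 3564, 5648, 3786 and 1453 CPM against 1809, 2784, 1122 and 1411 in classical monocytes. H2-Aa, H2-Ab1, H2-Eb1 and Cd74 were higher by 1.0, 0.94, 1.06 and 0.73 on the log2 scale (adjusted p = 0.0067, 0.0229, 0.0305 and 0.0316 in edgeR), 4 of 7 tested with 0 lower and a median of 0.94. Without the 22 cells the same 4 differences were -2.90, -3.05, -2.90 and -2.27, and the 6 genes then tested were all lower, with a median of -2.59. The cells were removed on Cd74, so these values describe the remainder and are not a test of it. Requiring 3 of the 4 selecting genes, a choice that does not use Cd74 but leaves out 17 of the 22 cells, also turned the direction: 6 of 6 class II genes were then lower, with a median of -1.46, and H2-Aa was at -1.49 (adjusted p = 0.00327 in edgeR). Over all libraries the 22 cells held 10438 CPM of H2-Aa and the other 127 held 245, and classical monocytes held 1415. In T cells H2-Aa was at 6.09 to 103 CPM in the 3 YAP7d libraries, from which 26, 5 and 61 of the 127 came, and at up to 526 CPM in YAP3d replicate 4. The class I calls were made both ways: H2-K1, H2-D1 and B2m, the 3 of 15 that were higher, had log2 differences of 0.87, 0.49 and 0.69 with the cells and of 1.0, 0.64 and 0.95 without. Class I and class II genes share reads among close paralogs, so single genes of both are uncertain.

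**Figure D5:**
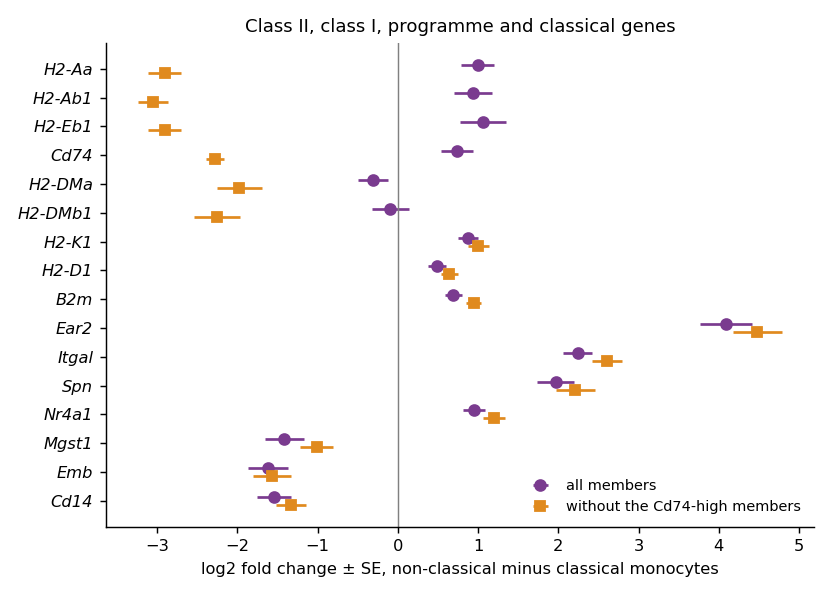
Log2 difference from classical monocytes for 16 genes, computed with all 149 members and without the 22 Cd74-high members. H2-Aa crosses 0 from 1.0 to -2.90, as H2-Ab1, H2-Eb1 and Cd74 do, whereas programme genes such as Ear2 (4.09 and 4.48) stay on the same side.

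Against the 813 C1q macrophages, cells with at least 5 counts of the complement C1q genes and among them Kupffer cells, 237 of 4299 genes were higher (5.51%) and 192 lower (4.47%) in the same 4 libraries, with a median of -0.04 on the log2 scale over all genes. Pglyrp1 showed the largest rise at 5.51 ± 0.59 (adjusted p = 0.00098 in edgeR), with 1452, 604, 995 and 1290 CPM against 19.0, 15.2, 3.70 and 101. S1pr5, a sphingosine phosphate receptor that guides exit from marrow, was 70.8, 54.9, 73.3 and 37.1 CPM against 2.11, 3.04, 1.23 and 3.05 (4.28 ± 0.50, adjusted p = 0.0014). Spn followed at 3.98. The remaining rises among the 10 largest were Ly6i, Mdm1, Napsa, G0s2, Skint3, Rap1gap2 and Adrbk2, from 3.79 to 3.05. Mrc1, the mannose receptor, was 0, 11.0, 0 and 0 CPM in the members and 374, 574, 152 and 46.6 in the macrophages, and led the falls at -6.94. Gas6, the bridging ligand of TAM receptors (-5.04), Vcam1 (-4.66), Itga9 (-4.42) and Apoc1 (-4.39) came next, then Cldn5, C3ar1, Dab2, Ccl7 and Ehd3.

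Of the non-classical programme 12 of 22 genes were higher than in C1q macrophages and 0 lower, with a median of 1.40. Nr4a1 was 260, 264, 116 and 303 CPM in the macrophages, below every value of the members (log2 difference 2.21), and Cebpb was 1128, 562, 999 and 1246 CPM (1.91). Spi1, Pou2f2 and Notch2 were the other factors that were higher among 20, and Maf, a factor of resident macrophages, and Id3, which Kupffer cells need, were lower (-3.64 and -1.43). Itgal, Itgax, Itgb2, Itga4, Spn and Coro1a were the 6 of 16 adhesion genes that were higher, with 0 lower. The 4 survival genes named above were again higher, by 1.31 to 3.01. Of 14 genes of Fc receptors and uptake 0 were higher and 5 lower (Mrc1, Stab1, Axl, Msr1 and Fcgr1), and among 6 complement genes 3 were lower (C3ar1, Cd55 and Cfp). Of 15 cytokines Il1b, which encodes interleukin-1 beta, was higher (1.37), a share near the 5.51% of all genes. Ccl2, Cxcl10 and Cxcl16 were lower (-2.48, -2.14 and -1.77). All 5 tested genes of the Kupffer list and all 7 of the endothelial list were lower. The macrophages of these libraries also held endothelial transcripts, for instance 758 CPM of Clec4g on average, and the part of these in the comparison was not tested.

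Leaving out the Cd74-high members raised the calls against C1q macrophages over all genes, to 8.23% higher and 7.32% lower of 4155, and several of these counts with them. Of the uptake genes Fcgr4, Fcer1g and Cd36 were then higher than in C1q macrophages (1.62, 0.94 and 1.12), 3 of 14, and 5 were lower. Class II held 0 calls of 7 with all members, at a median of 0.38, and 6 of 6 lower without them, at a median of -3.20. As above, these cells were removed on Cd74, so the class II values are a description. Class I genes H2-K1, H2-D1 and B2m passed the threshold as higher only without the Cd74-high members (0.70, 0.86 and 0.86), 3 of 15 with a list median of 0.11. Whether their differences changed between the fits was not tested. Of the proliferation list Mcm3 alone of 13 was lower with all members, a share near the 4.47% of all genes. Without the Cd74-high members 5 of 8 were lower: Mcm3, Stmn1, Tubb5, Tuba1b and Cenpa. Klf4 (1.69) was added to the factors that were higher, 6 of 19, and Cebpa (-1.28) to those that were lower.

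Between the groups, few differences in gene levels within the members could be tested. Libraries with at least 5 members were WT replicate 2, YAP3d replicates 2 and 4 and all 3 of YAP7d, so WT had 1 library and no test there. In that edgeR fit 0 of 2088 genes (0%) differed between YAP7d and YAP3d, with 114 at an unadjusted p under 0.05, and DESeq2 called 0, with 50 unadjusted. On simulated counts with genes changed by 2 on the log2 scale, the same fit recovered 66.3% of the 169 that passed its filter on low counts. Changed genes that the filter removed are not in this percentage. Smaller changes may thus not be detectable at this depth. Of the programme genes, Nr4a1 overlapped between all groups. Nr4a1 was 493 and 1157 CPM in WT, 913, 545, 1075 and 1209 in YAP3d and 866, 505 and 829 in YAP7d. Gngt2 was 758 and 2077 in WT, 1826, 1832, 1661 and 1385 in YAP3d, and 1966, 2340 and 1966 in YAP7d. Ear2 was 0 and 755 CPM in WT, 747, 575, 684 and 659 in YAP3d, and 793, 872 and 975 in YAP7d. All YAP7d values of Ear2 and of Gngt2 lay above all YAP3d values, without passing the test, and those of Gngt2 overlapped WT. How many of all tested genes separated in this way was not counted, so the order says little about these genes. Both genes were lower in the Cd74-high members (Gngt2 at 640 against 2306 CPM), which were a larger share of YAP3d, and their part in this order was not tested. The Ear2 value of 0 in WT replicate 1 rests on 3 cells, where 3 counts would be 114 CPM. Fcgr4 and Cx3cr1 were also at 0 in those 3 cells.

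The smallest p-values between YAP7d and YAP3d belonged to 5 genes, all with an adjusted p of 0.399 in edgeR. Socs3, a feedback inhibitor of cytokine signalling, was 500, 780 and 525 CPM in YAP7d and 212 and 132 in YAP3d replicates 2 and 4, while YAP3d replicates 1 and 3, outside the fit, were at 415 and 537. Dpep2, a dipeptidase that cleaves leukotriene D4, was 188, 321 and 230 CPM in YAP7d, 0, 30.3, 147 and 54.9 in YAP3d and 0 and 11.8 in WT. Every YAP7d library exceeded every other library for Dpep2, and 69 members held a count of it, with at most 8 counts in 1 cell. Ccl9, a chemokine of myeloid cells, was 481, 1055 and 559 CPM in YAP7d, 83.0, 242, 195 and 54.9 in YAP3d and 0 and 177 in WT, again without overlap. Fdps, an enzyme of the cholesterol pathway, was 36.7, 0 and 37.1 CPM in YAP7d, 581, 106, 97.7 and 451 in YAP3d and 75.8 and 70.8 in WT. Ypel3 was 197, 459 and 467 CPM in YAP7d and 0, 90.9, 391 and 76.9 in YAP3d, and 37.9 and 236 in WT. None of these passed in the fit of 6 libraries, and they are listed as values. They were picked for their small p-values, so a gap between the groups comes with the choice. Some passed in edgeR when 1 library was left out: Fdps and Ccl9 without YAP3d replicate 2 (log2 differences -3.74 and 3.42) and without YAP7d replicate 1 (-3.07 and 2.40), and Ypel3 without the latter (2.46). Without YAP3d replicate 2 that group is 1 library, assumed to vary like the other groups. Fdps also passed without the filter on low counts.

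A fit of all 9 libraries, added after the data were seen and including libraries of 2 to 4 members, tested 1453 genes and called 0 in each of the 3 contrasts in edgeR, with 90, 50 and 66 at an unadjusted p under 0.05 for YAP7d minus WT, YAP3d minus WT and YAP7d minus YAP3d. DESeq2 called 1, 1 and 0, the gene being Il4i1 in both cases. Some counts in WT lay largely in single cells. Of 672 counts of the chemokine Ccl5 in members, 300 lay in 1 cell of WT replicate 1, although 69 members held a count. Single cells of WT replicate 2 held 24 of 25 counts of Fscn1, 16 of 36 of Il4i1, 42 of 98 of Tmem123 and 15 of 40 of Ccr7, and Tmem123 was counted in 40 members. Ccr7 and Fscn1 are known from mature migrating dendritic cells. Another held 12 of 24 counts of Mki67 and 15 of 29 of Top2a, genes of dividing cells. Class II genes were lower in YAP7d than in YAP3d for 7 of 7 tested in the fit of 6 libraries, with 0 passing and a median of -1.14, where the median over all genes was -0.01. Other lists also pointed 1 way with 0 passing. The 9 tested proliferation genes pointed upwards at a median of 0.98, the 3 tested neutrophil genes at 3.49 and the 3 complement genes at 0.44. The 2 tested dendritic genes pointed downwards at -2.96 and the 2 endothelial genes at -4.04. In the libraries of that fit, Cd74-high members were 6 of 32, 0 of 5 and 3 of 64 in YAP7d and 2 of 8 and 3 of 14 in YAP3d, and their part in the class II difference was not tested.

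Transcripts of other cell types accompanied the members to differing degrees. A set of 10 genes of other lineages were used as a check, and 109 members had a count of at least 1 of them. The 10 endothelial genes summed to 265 to 460 CPM in WT, 15.1 to 692 in YAP3d and 0 to 53.4 in YAP7d, all 10 being detected. The 10 hepatocyte genes, of which Mup3 was at 0, summed to 152 to 153 CPM in WT, 0 to 182 in YAP3d and 353 to 425 in YAP7d. The 7 Kupffer genes summed to 37.9 to 82.6, 0 to 98.9 and 41.3 to 413 CPM. The 9 neutrophil genes reached 130 CPM in WT and 297 in YAP3d and lay between 91.8 and 4999 in YAP7d. The value of 4999 was that of YAP7d replicate 3, where 1 member held 1670 of these counts among its 6634 UMIs, and was 1141 without that cell. The part of these transcripts in the comparisons of groups was not tested.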

How the data were processed

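Whole livers were dissociated with dispase and collagenase, as the methods of the study describe for liver cells other than hepatocytes. They were sequenced as Chromium 3' v2 libraries, as those methods give for whole liver tissue. The submitters' processing notes name Cell Ranger, Seurat and the build mm10. The authors deposited 1 table of raw UMI counts, 27998 genes by 8562 cells, with no annotation of cell types, and every column prefix matched 1 library. The members, the gene lists and the comparisons were chosen with earlier results of these data known. For each library, the counts of a class were added up and tested with edgeR 4.0.16 (R 4.3.3; TMM scaling, filterByExpr, quasi-likelihood F-test, Benjamini-Hochberg adjustment over all genes tested, threshold 0.05), with the library as a block between classes, and DESeq2 1.42.0 as an alternative. Log2 differences are edgeR's fitted values, and CPM are of summed counts. Fits within the members needed at least 5 members per library, which left WT with 1 library and values only, and fits between classes at least 10 cells of each. Shares were compared by two-sided exact permutation over libraries. Intervals are exact binomial (95%) and, like the limit of 3 counts, cover counting error only. Doublets were scored with Scrublet in scanpy 1.11.5 (expected rate 0.05) and were not removed. T cells were cells with Cd3e and no Lyz2.

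Genes were named by a rule: at most 10 rises and 10 falls in each comparison, all past the threshold, averaging 50 CPM or more in either class and pointing 1 way in every library; where fewer than 5 passed, the 5 with the smallest p, as values. Members of the gene lists, genes of single cells and Gm10709 were named beside these, the last 2 after their values were seen. Results of 2 further genes are not reported here, and the list counts leave them out. On simulated counts with log2 changes of 2, edgeR recovered 100% of 175 changed genes among 3016 in the comparison with classical monocytes (3.31% of calls false), 97.1% of 174 among 4339 for C1q macrophages (0.588% false) and 66.3% of 169 among 1998 within the members (2.61% false). These percentages leave out changed genes that the filter on low counts removed. Same-numbered libraries did not deviate together (correlations from -0.0394 to 0.142 over 2418 genes), so replicate numbers were not used to pair samples.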

Additional observations from a re-analysis of the deposited data

Results flagged for a closer look

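The difference between non-classical and classical monocytes was not the same in YAP7d (2 libraries) as in WT (1 library, replicate 2) for 49 of 3072 genes in edgeR's test of the class by group interaction, 27 higher and 22 lower. The fit left 1 residual degree of freedom, so the spread within WT was not measured and the count compares these libraries, not induction with its absence. The smallest p-values belonged to Stmn1 (-6.54 on the log2 scale), Tuba1b (-3.04), Ccl4 (2.87) and Hmgb2 (-2.32). Stmn1, Tuba1b and Hmgb2 are genes of dividing cells, and 1 of the 17 members of WT replicate 2 held 12 of the 24 counts of Mki67 and 15 of the 29 counts of Top2a found in all members. Its part in these differences was not tested. With 3 of the 4 selecting genes required, Stmn1 and Hmgb2 no longer passed, whereas Ccl4 and, narrowly, Tuba1b did. DESeq2 called 0 genes, with 29 at an unadjusted p under 0.05, and edgeR called 5 with at least 5 cells per library and 3 with thinned cells.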

How the results depend on the processing

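For the 10 largest rises and 10 largest falls, 237 of 238 recomputed differences from classical monocytes and 241 of 243 from C1q macrophages kept their direction and stayed past the threshold. The exceptions were Ifi47 without the library block, and Spn and Itga9 with at least 20 cells per library. The class II genes H2-Aa, H2-Ab1, H2-Eb1 and Cd74, listed but not among these, reversed against classical monocytes without the Cd74-high members and with 3 of the 4 selecting genes. Ear2 kept its call under all 13 alternatives against classical monocytes. The largest rises and falls were chosen among genes past the threshold, so their stability comes largely with the choice. Over all calls, 155 of 314 against classical monocytes were kept without YAP7d replicate 3. Against C1q macrophages 151 of 429 were kept without YAP7d replicate 1. Depth limits the rest: a library with 2 to 8 members shows no gene below about 45.4 to 249 CPM with 3 counts, and 640 cells had under 2000 UMIs, 0 of them in YAP7d.

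The difference in share of all cells between YAP3d and WT, 0.116 points, was -0.0922 when 3 of the 4 selecting genes were required and -0.0600 without the Cd74-high members. Without members that held counts of other cell types, which are 109 of the 149, YAP7d minus WT was 1.17 instead of 2.42 and YAP7d minus YAP3d 0.758 instead of 2.30. For the share of monocytes, YAP7d minus WT was 10.2 with cells thinned to 2000 UMIs, 13.2 at 1000, 1.61 with 3 of the 4 genes, 8.56 without members that held counts of other cell types and 5.01 without the Cd74-high members. YAP3d minus WT was 11.8, 12.5 and, without members with counts of other cell types, 15.6. YAP7d minus YAP3d was 0.706 at 1000 UMIs, 9.88 with 3 of the 4 genes, 1.03 in cells of at least 4000 UMIs and 13.9 without the Cd74-high members. No share passed 0.05 under any of these. Within the libraries alike in Gm10709, YAP3d minus WT was -0.140 for all cells and 1.38 for monocytes, and YAP7d minus YAP3d 5.67 for monocytes. The alternatives on Cd74, 4000 UMIs and Gm10709 were chosen after seeing the data.

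Against classical monocytes (314 genes) the count was 180 with DESeq2, 576 with at least 20 cells, 179 with thinned cells, 142 without the library block and 503 without the Cd74-high members. All 180 genes of DESeq2 and all 142 without the block were among the 314. Against C1q macrophages (429) it was 1011 without the filter on low counts, 710 and 283 with at least 5 and 20 cells, and 646 without the Cd74-high members. Within the members, YAP7d minus YAP3d gave 15 genes without the filter and 1 (Tnf) with 3 of the 4 genes. In the fit of 9 libraries, YAP7d minus WT gave 1 (Il4i1) with DESeq2 and 3 (Ccl5, Ccr7 and Tmem123) without the Cd74-high members, and YAP3d minus WT gave 1 (Il4i1) and 1 (Ccl5). Without those members YAP3d replicate 1 dropped out and WT replicate 1 was 1 cell. The interaction (49) gave 20 with DESeq2 size factors, 0 with DESeq2, 5 with at least 5 cells (Tuba1b, Tmem123, Hmgn2, Hmgb2 and Ran), 3 with thinned cells (Npc2, Trf and Ccl4) and 23 with 3 of the 4 genes. The causes were not tested.

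Leaving out 1 library at a time moved the shares of all cells from 1.40 to 3.53 (YAP7d minus WT), -0.196 to 0.429 (YAP3d minus WT) and 1.28 to 3.41 (YAP7d minus YAP3d), and the shares of monocytes from -11.5 to -0.508, -9.92 to 1.41 and -6.97 to 5.08. Counts ranged from 168 to 321 against classical monocytes (168 without YAP7d replicate 3, 204 without YAP7d replicate 1) and from 178 to 513 against C1q macrophages (178 without YAP7d replicate 1, 225 without WT replicate 2). Within the members YAP7d minus YAP3d ranged from 0 to 21: 21 without YAP3d replicate 2, 13 without YAP7d replicate 1 and 5 without YAP3d replicate 4 (Pglyrp1, Smc6, Stap1, Fabp4 and Chmp2b). In the fit of 9 libraries the 2 contrasts with WT ranged from 0 to 5 each, with 5 without WT replicate 1 and 4 without WT replicate 2. Where these fits leave YAP3d or WT with 1 library, it is assumed to vary like the other groups. A replicate block in that fit gave 0 genes in all 3 contrasts; the fit of 6 libraries could not hold one, nor be made with at least 20 cells or without members that held counts of other cell types.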
